A study of Mus musculus with 16 samples.

Results

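RNA levels of 8 transcription regulators of the adrenal cortex were compared between control and Rspo1 gain-of-function (GOF) adrenals of female and male mice. The genes were the orphan nuclear receptors Nr5a1, Nr5a2, Nr0b1, Nr2f1, Nr2f2 and Nr2f6, the transcriptional co-regulator Cited2 and the homeobox gene Six4. They were chosen by name, with earlier results of these data known. The row of each was found through its Ensembl identifier in the GENCODE mouse M21 annotation. All 8, of 54838 genes counted, passed the filter on low counts. Bulk RNA sequencing of whole adrenal glands, taken at 4 weeks of age from mice of mixed genetic background, gave 4 groups of 4 libraries: female control, female Rspo1 GOF, male control and male Rspo1 GOF. Each library came from another mouse. R-spondin 1, the product of Rspo1, is secreted and amplifies WNT signals at the cell surface. The promoter and the cells that drive Rspo1 in GOF mice, and the alleles that controls carry, are not given in the sources used here.

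Nr5a1 encodes steroidogenic factor 1 (SF-1), the nuclear receptor that adrenal and gonadal steroid-producing cells need to form and that activates most genes of steroid synthesis. Nr0b1 encodes DAX1, an X-linked nuclear receptor without a usual DNA-binding domain that binds SF-1 and represses its activity, and Nr0b1 is itself a target gene of SF-1. CITED2 acts with SF-1 and WT1 in adrenal development, COUP-TF proteins (Nr2f1, Nr2f2 and Nr2f6) bind repeats of the core AGGTCA that many nuclear receptors read, and SIX4 is a homeodomain protein. Nr5a2 encodes LRH-1, the paralog of SF-1, best known in liver, pancreas and ovary.

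Promoter windows are shown for the members whose window held a searched motif, because SF-1, other nuclear receptors and the TCF/LEF factors of the WNT pathway bind such letters. RefSeq windows on build GRCm38.p6 were found for 7 of the 8 members (none for Nr5a1), 10 windows in all, and the 250 bases upstream of each RefSeq start site were searched. The Nr0b1 window is printed up to the GENCODE gene start, which lies inside it. The 3 motifs were searched on both strands: CAAGGNCA, a site of the NR5A receptors; AGGTCA, the core read by many nuclear receptors; and CTTTGAT, a core of TCF/LEF sites. None of these 10 windows held CAAGGNCA, which 5.53% of all 32817 windows did. AGGTCA, found in 14.0% of all windows, was in the window of Nr0b1 (chrX:86191525-86191763, plus strand), 126 to 121 bases before the start site, and in that of Nr5a2 (chr1:136960449-136960698, minus strand), 64 to 59 bases before it. CTTTGAT, found in 3.21% of all windows, was in the window of Nr2f2 (chr7:70366747-70366996, minus strand), 114 to 108 bases before the start site. Each is printed from 5′ to 3′ on the gene's strand, with the motif in capitals.
Nr0b1: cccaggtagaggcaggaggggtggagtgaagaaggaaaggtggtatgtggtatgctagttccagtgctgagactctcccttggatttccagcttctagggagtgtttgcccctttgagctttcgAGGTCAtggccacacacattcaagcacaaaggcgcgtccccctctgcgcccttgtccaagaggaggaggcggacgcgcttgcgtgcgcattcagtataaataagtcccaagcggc
Nr5a2: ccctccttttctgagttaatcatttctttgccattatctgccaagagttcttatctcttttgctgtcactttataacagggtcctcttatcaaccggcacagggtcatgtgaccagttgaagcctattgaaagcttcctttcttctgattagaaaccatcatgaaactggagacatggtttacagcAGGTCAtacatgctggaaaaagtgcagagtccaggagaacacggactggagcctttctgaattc
Nr2f2: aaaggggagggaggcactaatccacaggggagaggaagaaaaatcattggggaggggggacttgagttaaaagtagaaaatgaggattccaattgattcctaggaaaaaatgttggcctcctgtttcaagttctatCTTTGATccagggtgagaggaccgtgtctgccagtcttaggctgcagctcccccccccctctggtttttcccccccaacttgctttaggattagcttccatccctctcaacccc
These letters describe the sequence; no binding was measured.

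Libraries held 31275146 to 43003968 counts. Each level is in CPM (per 1000000 counts of a library, TMM-scaled), and fold changes as log2 values with their standard error from edgeR's quasi-likelihood test, with p-values adjusted by the Benjamini-Hochberg method over all 18214 tested genes and a threshold of 0.05. Rspo1 itself was at 3.19 to 40.5 CPM in the female and 19.4 to 48.2 in the male controls, and at 353 to 532 CPM in female and 534 to 971 in male GOF, so every GOF library was above every control library. The summed level of 5 cortical markers (Cyp11a1, Star, Hsd3b1, Cyp21a1 and Mc2r) was between 27997 and 44037 CPM in every library. Control and GOF sums overlapped in each sex. Male libraries were at 27997 to 30310 CPM, apart from male control 1 (43627.5) and male GOF 2 (39087), and female libraries at 33899.5 to 44037. Of these 5 markers 1 rose and 1 fell with GOF in each sex. In males against females 0 passed among controls, and 3 were lower and 0 higher among GOF mice. Markers of neighbouring tissues were not even. Kidney tubule markers summed to 967 and 159 CPM in female control 1 and female control 3 and to at most 2.40 CPM in every other library, and liver markers reached 8299 CPM in male control 2 against 181 to 763 CPM in the other male controls. The 7 medulla markers had sums of 4689 to 10731 (female) and 7500 to 11128 CPM (male) in controls, against 192 to 758 and 388 to 871 CPM in GOF. The 6 adipocyte markers summed to 1866 to 2340 CPM in female and 2431 to 4688 in male controls, and to 532 to 988 CPM in female and 413 to 508 in male GOF, and 5 of the 6 fell with GOF in females and all 6 in males. Of the 5 macrophage markers 1 rose with GOF in females and 3 in males, and of the 4 smooth muscle markers none passed in females and 3 fell in males. In males against females 4 macrophage markers were higher among controls and 3 among GOF mice. For smooth muscle these were 2 and 1, and 0 markers of either list were lower. In bulk tissue, fewer cells of a type and less RNA per cell cannot be told apart.

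**Figure D1:**
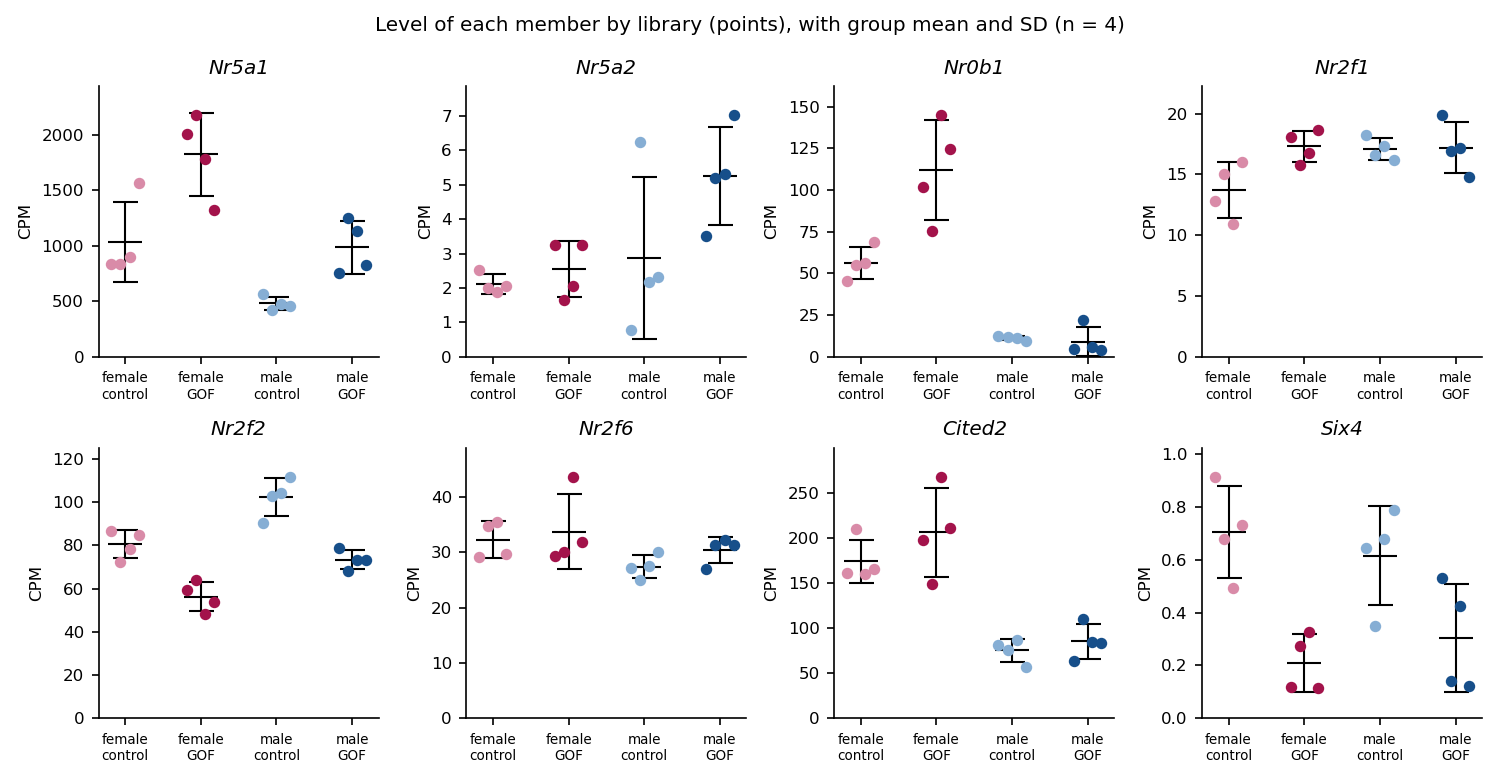
Level of each of the 8 genes in every library, in CPM, by group. Points are single mice, with the mean and SD of 4 libraries. Nr5a1 is lowest in male controls, Nr0b1 and Cited2 are lower in males than in females, and Nr2f2 is lower in GOF than in control libraries of each sex.

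Nr5a1 RNA was higher in GOF than in control adrenals of both sexes and lower in males than in females of either genotype. The gene (ENSMUSG00000026751) lies on chromosome 2, 38692656 to 38714542, minus strand. Female controls 1 to 4 had 835, 835, 903 and 1571 CPM (mean 1036 ± 358, SD, n = 4), and female GOF libraries had 2010, 2179, 1779 and 1325 CPM (1823 ± 370). Female control 4 stood above the 3 others and overlapped the GOF group; without it the controls had a mean of 858 ± 39.2 CPM (n = 3). Male controls had 564, 426, 479 and 459 CPM (482 ± 59.1) and male GOF libraries 753, 1248, 1131 and 824 CPM (989 ± 238), with no overlap. GOF raised Nr5a1 by 0.82 ± 0.223 on the log2 scale in females (edgeR, adjusted p = 0.00956) and by 1.04 ± 0.224 in males (adjusted p = 0.00224). The difference between these effects was 0.22, and the interaction of sex and genotype had an adjusted p of 0.732. Males were below females by a log2 change of -1.10 ± 0.224 among controls (adjusted p = 0.00284) and of -0.88 ± 0.223 among GOF mice (adjusted p = 0.00792). Without female control 4 the female GOF change was 1.09 (adjusted p = 0.000746). Medulla and adipocyte markers were lower in the same GOF libraries while the cortical sums overlapped; the part of this in the GOF change was not tested beyond the ratio to Cyp11a1 given further on. Leaving out the 3 libraries with kidney or liver transcripts gave 0.60 and an adjusted p of 0.138, with female controls 2 and 4 alone as the female control group.

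Titles of the samples hold numbers, called animal numbers here, which fall into separate ranges that are unevenly spread over the sexes. The lowest range alone held both sexes, and its only female libraries were female control 1 and female GOF 1. Sex and range are thus nearly confounded. Sex differences fitted with the range as a covariate depend on that range and separate sex from range poorly. What those ranges stand for is not given in the sources used here. With the range as a covariate the sex differences of Nr5a1 were -0.94 (edgeR, adjusted p = 0.0814) in controls and -0.85 (adjusted p = 0.126) in GOF mice. An antisense gene, Nr5a1os, lies over Nr5a1 with 41 to 676 counts per library, and the strand setting of the counting is not given in the sources used here.

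Nr0b1, the SF-1 repressor, differed by sex more than by genotype. Its locus is on chromosome X, 86191764 to 86195947, plus strand (ENSMUSG00000025056). Female controls had 45.2, 55.1, 56.5 and 68.7 CPM (56.4 ± 9.63) and female GOF libraries 102, 75.3, 145 and 125 CPM (112 ± 30.0). Male controls had 12.4, 11.6, 11.4 and 9.59 CPM (11.2 ± 1.17), and male GOF libraries 4.42, 22.0, 5.65 and 3.86 CPM (8.97 ± 8.69). Every male library was below every female library, and male GOF 2 alone of its group was above the male controls. The other 3 male GOF libraries had a mean of 4.65 ± 0.916 CPM and lay below all male controls.

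The male level of Nr0b1 was 5.02-fold lower than the female level among controls, a log2 change of -2.33 ± 0.444 (edgeR, adjusted p = 0.00201). Among GOF mice it was 12.5-fold lower, a log2 change of -3.64 ± 0.467 (adjusted p = 7.39e-05). Over the fits that left out a library, this change ran from -4.57 without male GOF 2 to -3.38 without male GOF 4. The control difference was -1.87 with an adjusted p of 0.0589 once the animal number range was a covariate. GOF against control did not pass in either sex, at 0.99 ± 0.421 in females (adjusted p = 0.0761), although the female groups did not overlap, and -0.32 ± 0.434 in males (adjusted p = 0.595). These values turned on male GOF 2 and on the test. Without that library the female change was 0.95 (adjusted p = 0.00112), the male change was -1.29 (adjusted p = 0.000442) and the interaction was -2.24 (adjusted p = 0.000696), against -1.31 and 0.241 with it. The female change also passed with DESeq2 (adjusted p = 0.0444) and with a fit of the female groups alone (adjusted p = 0.00532).

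X-zone markers moved with part of this pattern. The X-zone is an inner cortical zone of young mice that male puberty removes. Akr1c18 and Pik3c2g, its 2 listed markers, had a summed level of 4906 to 7351 CPM in the 4 female controls. In female GOF the sum was 0.117 to 1.04, in male controls 0 to 3.24 and in male GOF at most 0.106 CPM. Female GOF adrenals had the highest Nr0b1 levels, with X-zone markers near 0. The part of X-zone cells in the sex and GOF differences of Nr0b1 was not tested.

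Per unit length, Nr0b1 RNA was a small fraction of Nr5a1 RNA. FPKM, fragments scaled to transcript length and library total, was used for ratios within a library, compared by 2-sided exact permutation tests of 4 against 4 libraries, whose smallest possible p is 0.0286. P-values were adjusted over the 12 tests made, 3 ratios in 4 comparisons. The geometric mean of Nr0b1 to Nr5a1 was 8.26% in female controls, 8.95% in female GOF, 3.44% in male controls and 1.04% in male GOF. On the log2 scale these were -3.60 ± 0.265, -3.48 ± 0.661, -4.86 ± 0.167 and -6.59 ± 0.895 (SD, n = 4). In males the ratio was 3.32-fold lower in GOF than in controls (exact p = 0.0286, adjusted p = 0.0429), with no overlap: male GOF 2, at 2.60%, was below the lowest male control at 3.09%. The rise of Nr5a1 with GOF in males, 1.04 on the log2 scale, enters this ratio. Nr0b1 itself changed by -0.32 there (edgeR, adjusted p = 0.595). Male GOF 2 had more Nr0b1 than any male control and the highest Nr5a1 of its group, at 1248 CPM. In females GOF and control ratios overlapped and differed by 0.12 on the log2 scale (exact p = 0.771). The ratio was 2.40-fold lower in males than in females among controls and 8.64-fold lower among GOF mice, each with an exact p of 0.0286 and an adjusted p of 0.0429.

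**Figure D2:**
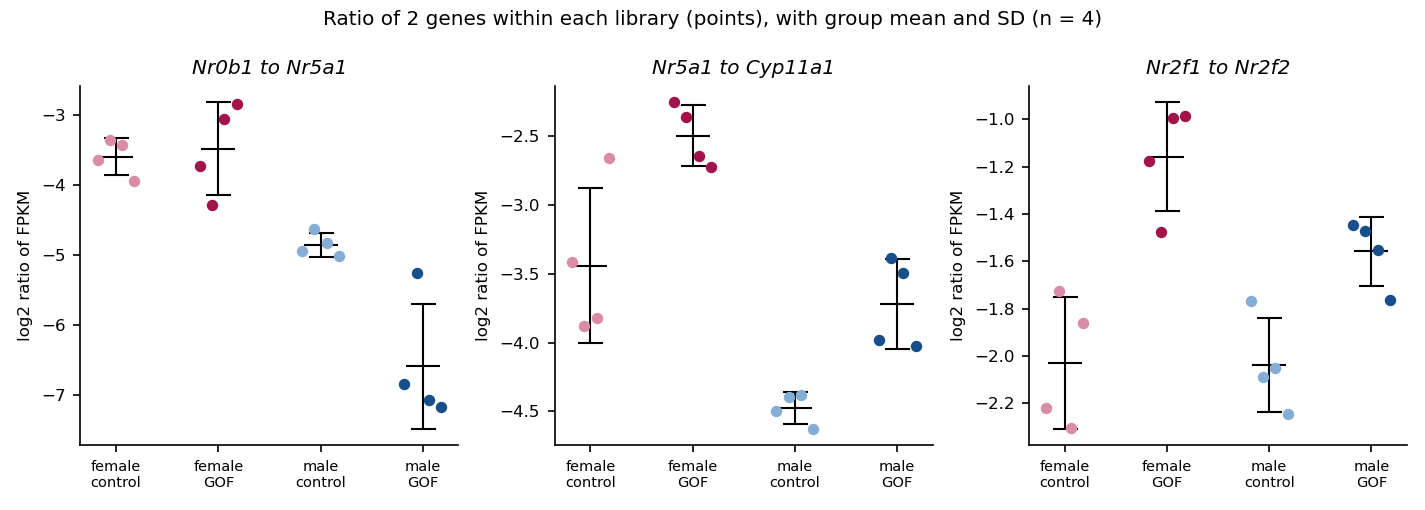
Log2 ratio of FPKM of Nr0b1 to Nr5a1, Nr5a1 to Cyp11a1 and Nr2f1 to Nr2f2 within each library. Points are single mice, with the mean and SD of 4 libraries per group. The Nr0b1 to Nr5a1 ratio of male GOF libraries lies below all others, with male GOF 2 nearest to the controls.

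Nr5a1 was also set against Cyp11a1, the cholesterol side-chain cleavage enzyme that starts steroid synthesis and that marks all steroid-producing cortex. The log2 ratio of Nr5a1 to Cyp11a1 was -3.44 ± 0.565 in female controls and -2.49 ± 0.223 in female GOF (exact p = 0.0571, adjusted p = 0.0762), and female control 4 was again the control that overlapped. In males it was -4.47 ± 0.113 in controls and -3.72 ± 0.329 in GOF, with no overlap (exact p = 0.0286, adjusted p = 0.0429). Males had the lower ratio in both genotypes, by -1.03 among controls and -1.23 among GOF mice (each exact p = 0.0286, adjusted p = 0.0429). The sex difference of Nr5a1 was present relative to Cyp11a1, the only cortical marker used for such a ratio. Of the 5 cortical markers, 3 were lower in male than in female GOF (Hsd3b1, Cyp21a1 and Mc2r) and 0 were higher. Their median log2 change was -0.68, beside -0.88 for Nr5a1. Among controls 0 of the 5 passed. The sex difference of Nr5a1 relative to markers other than Cyp11a1 was not tested.

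Cited2 differed between the sexes and did not pass between genotypes. Its position is chromosome 10, 17723218 to 17725674, plus strand (ENSMUSG00000039910). Female controls had 161, 209, 160 and 165 CPM (173.8 ± 23.9) and male controls 81.6, 76.1, 86.3 and 57.1 CPM (75.3 ± 12.8). Female GOF libraries had 197, 148, 268 and 211 CPM (206 ± 49.1) and male GOF libraries 63.2, 110, 84.9 and 83.4 CPM (85.4 ± 19.2). No male library reached the lowest female library. Males were lower by a log2 change of -1.21 ± 0.190 among controls (edgeR, adjusted p = 0.000442) and of -1.27 ± 0.190 among GOF mice (adjusted p = 0.000212), and both differences passed under every alternative run. GOF against control was 0.24 in females (adjusted p = 0.317) and 0.18 in males (adjusted p = 0.476).

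Nr2f2, which encodes COUP-TFII and is known from mesenchymal, venous and steroid-producing cells, moved against Nr5a1. The gene is on chromosome 7, 70351944 to 70366735, minus strand (ENSMUSG00000030551), and B130024G19Rik, with 27 to 202 counts per library, overlaps it on the other strand. Female controls had 86.9, 72.4, 78.3 and 84.6 CPM (80.5 ± 6.52) and female GOF libraries 59.2, 64.0, 48.4 and 53.7 CPM (56.4 ± 6.76). Male controls had 90.3, 103, 104 and 112 CPM (102 ± 8.96) and male GOF libraries 78.8, 68.2, 73.3 and 73.2 CPM (73.4 ± 4.32). None of the 4 pairs of groups compared overlapped. GOF lowered it by a log2 change of -0.52 ± 0.0910 in females (edgeR, adjusted p = 0.000474) and -0.48 ± 0.0908 in males (adjusted p = 0.00082). Males were higher by 0.35 ± 0.0907 among controls (adjusted p = 0.0136) and by 0.38 ± 0.0909 among GOF mice (adjusted p = 0.00562). With the animal number range as a covariate the sex differences were 0.24 (adjusted p = 0.266) and 0.25 (adjusted p = 0.313), and the control difference was 0.38 (adjusted p = 0.0906) without the 3 libraries with kidney or liver transcripts.

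The 8 capsule and stroma markers, genes of the mesenchymal shell of the gland, moved with Nr2f2. Their sum was 1286 to 1619 CPM in female and 1472 to 6033 in male controls, and 281 to 825 CPM in female and 746 to 928 in male GOF. With GOF, 7 of the 8 fell in females and all 8 in males, and 5 of the 8 were higher in males among controls and 4 among GOF mice. The 7 endothelial markers had sums of 555.3 to 709 (control) and 578 to 668 CPM (GOF) in females, and of 383 to 864 and 804 to 1031 CPM in males. With GOF none of them passed in females and 3 rose in males, and between the sexes none passed among controls and 6 were higher in males among GOF mice. Adipocyte markers fell with GOF as well, as given above. The part of stromal, endothelial or fat cells in the Nr2f2 difference was not tested.

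**Figure D3:**
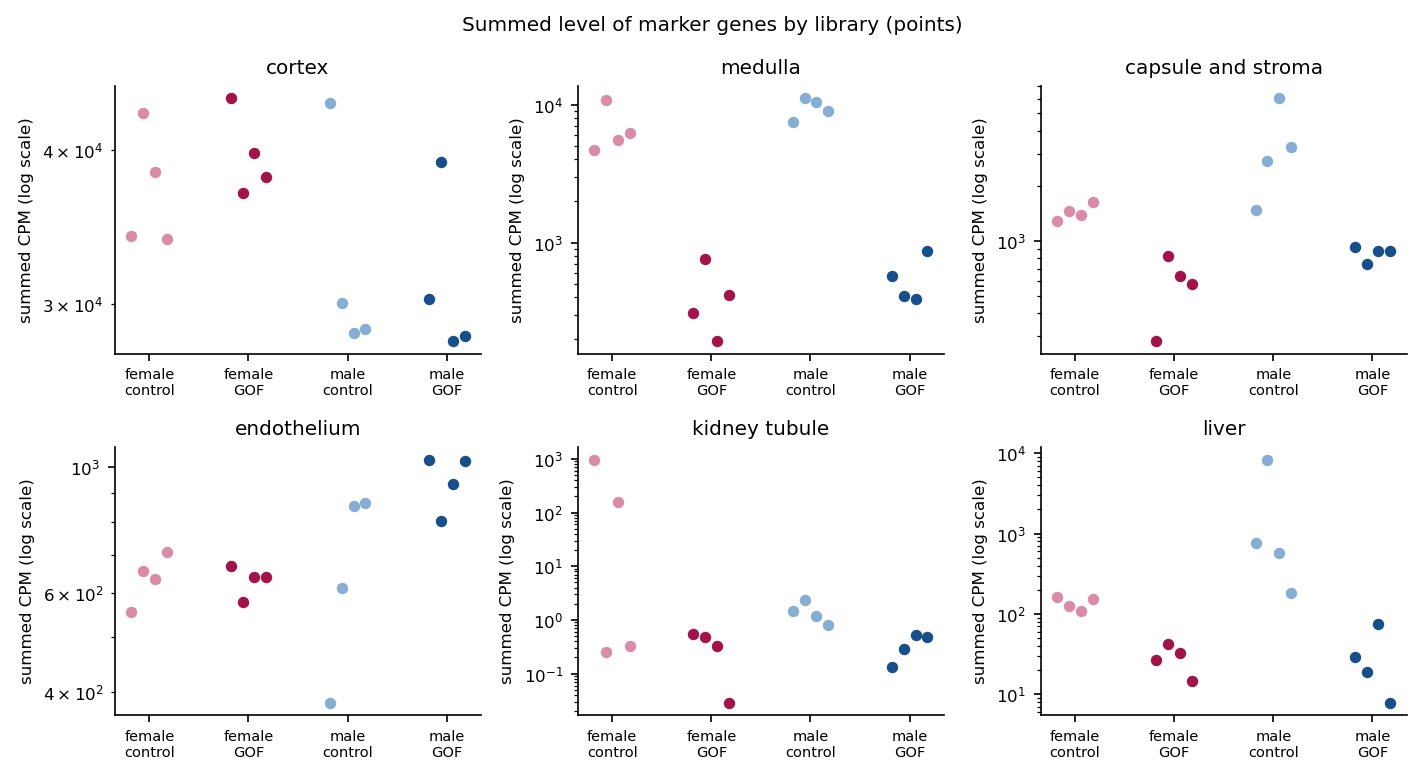
Summed CPM of cell type marker lists in each library, by group, on a log axis. Points are single mice. Medulla and capsule sums are lower in GOF than in control libraries, cortex sums overlap, and single control libraries are high for kidney tubule or liver markers.

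Nr2f1, which encodes COUP-TFI, showed small differences. Its locus is on chromosome 13, 78188973 to 78199757, minus strand (ENSMUSG00000069171), under the antisense gene A830082K12Rik, which had 218 to 405 counts per library. Female controls had 12.8, 15.1, 10.9 and 16.01 CPM (13.7 ± 2.30), female GOF libraries 18.1, 15.8, 16.7 and 18.6 CPM (17.3 ± 1.27), male controls 18.2, 16.6, 17.3 and 16.2 CPM (17.1 ± 0.885) and male GOF libraries 19.9, 16.9, 17.2 and 14.8 CPM (17.2 ± 2.08). Female controls were the low group. GOF raised it in females by 0.34 ± 0.122 (edgeR, adjusted p = 0.0386), a call lost in 10 of the 16 fits that left out a library and in 6 of 11 other alternatives. It was 0.15 (adjusted p = 0.429) without the 3 libraries with kidney or liver transcripts. Without female control 4, the male to female difference among controls, 0.32 with an adjusted p of 0.0693, became 0.40 (adjusted p = 0.0391).

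The ratio of Nr2f1 to Nr2f2 rose with GOF in both sexes, by 0.87 on the log2 scale in females and 0.48 in males (each exact p = 0.0286, adjusted p = 0.0429). Its group means were -2.03 ± 0.279 in female controls, -1.16 ± 0.230 in female GOF, -2.04 ± 0.199 in male controls and -1.56 ± 0.145 in male GOF. Between the sexes it differed by -0.01 among controls (exact p = 0.971) and by -0.40 among GOF mice (exact p = 0.0857, adjusted p = 0.103). These paralogs therefore changed by different amounts with GOF in both sexes.

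Nr2f6, the third COUP-TF member, passed in no comparison. It lies on chromosome 8, 71374123 to 71381960, minus strand (ENSMUSG00000002393), overlapping the protein-coding gene Ocel1 on the other strand, which had 662 to 1200 counts per library. Its group means were 32.3 ± 3.35 CPM in female controls, 33.8 ± 6.73 in female GOF, 27.4 ± 2.01 in male controls and 30.5 ± 2.37 in male GOF. Single libraries ran from 25.1 to 43.7 CPM.

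Nr5a2, the paralog of Nr5a1, was low and passed in no comparison. It is on chromosome 1, 136842571 to 136960448, minus strand (ENSMUSG00000026398). Female controls had 2.53, 1.999, 1.88 and 2.05 CPM (2.11 ± 0.287), female GOF libraries 3.24, 1.65, 2.06 and 3.26 CPM (2.55 ± 0.823), male controls 0.768, 6.26, 2.16 and 2.31 CPM (2.87 ± 2.36) and male GOF libraries 3.52, 5.196, 5.30 and 7.03 CPM (5.26 ± 1.43). Male control 2 was the high library of its group and the library with 8299 CPM of liver markers; its part in the result was measured by leaving it out. GOF against control in males was 0.87 ± 0.449 with it (edgeR, adjusted p = 0.141) and 1.58 without it (adjusted p = 0.00497). With all libraries it passed in limma on log2(FPKM + 0.1), at 1.21 (adjusted p = 0.0318), and on log2(FPKM + 1), at 0.72 (adjusted p = 0.0285). The male to female difference among GOF mice, where the groups did not overlap, was 1.04 ± 0.450 (adjusted p = 0.0944), and it passed without male control 1 (adjusted p = 0.0343) or male control 2 (adjusted p = 0.0262), and in the fit of the GOF groups alone (adjusted p = 0.0260).

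Six4 was the least abundant member, with 4 to 34 counts per library. It lies on chromosome 12, 73099609 to 73113456, minus strand (ENSMUSG00000034460). Female controls had 0.915, 0.677, 0.492 and 0.733 CPM (0.704 ± 0.174) and female GOF libraries 0.117, 0.275, 0.328 and 0.114 CPM (0.208 ± 0.110), with no overlap. Male controls had 0.646, 0.351, 0.679 and 0.788 CPM (0.616 ± 0.187) and male GOF libraries 0.530, 0.143, 0.425 and 0.121 CPM (0.305 ± 0.204), with overlap. GOF lowered it in females by a log2 change of -1.74 ± 0.485 (edgeR, adjusted p = 0.0108), and with the animal number range as a covariate by -1.55 (adjusted p = 0.0502). The male change was -0.99 ± 0.470 (adjusted p = 0.111), and -1.41 (adjusted p = 0.0428) without male GOF 1. The difference between the sexes in this effect did not pass in the interaction test.

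**Figure D4:**
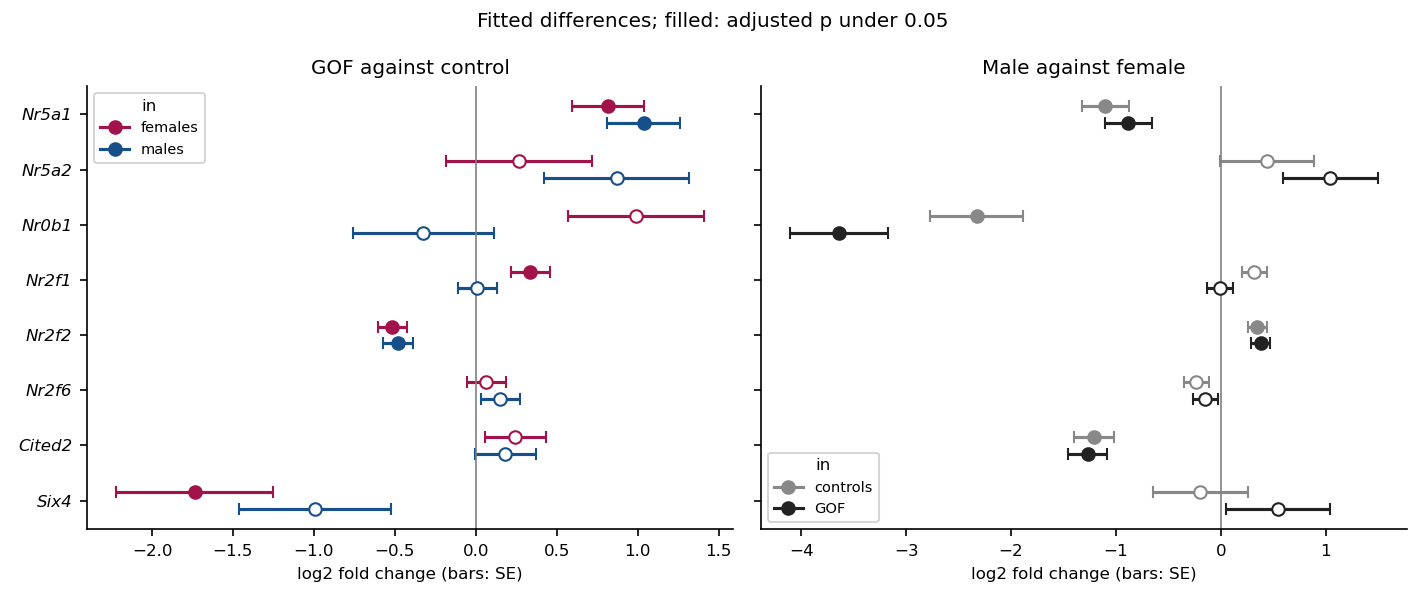
Log2 fold change of each of the 8 genes in the 4 comparisons, with its standard error from the edgeR fit. Filled points passed an adjusted p of 0.05. Nr5a1 is above 0 with GOF in both sexes and below 0 in males against females, and Nr2f2 shows the opposite signs.

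Of the 8 members, 2 rose and 2 fell with GOF in females, where 39.6% of all tested genes passed (19.0% higher, 20.6% lower). In males 1 rose and 1 fell, where 36.9% passed (15.2% higher, 21.8% lower). In males against females 1 was higher and 3 were lower among controls, where 23.4% passed (13.5% higher, 9.89% lower), and again 1 and 3 among GOF mice, where 29.6% passed (13.3% higher, 16.3% lower). No member passed in the interaction in edgeR, where 4.21% of genes did (1.59% higher, 2.61% lower); 1 had an unadjusted p below 0.05, and DESeq2 also called 0. The groups did not overlap for 3 members with GOF in females, where 37.8% of genes had no overlap, and for 2 in males, where 33.1% had none. Between the sexes they did not overlap for 5 members among controls, beside 25.3% of genes, and for 5 among GOF mice, beside 29.1%. The members' median log2 changes were 0.26, 0.08, -0.21 and -0.08 in these 4 comparisons, beside 0.05, 0.01, 0.08 and 0.03 over all tested genes. The members' share past the threshold with GOF, 4 and 2 of 8, was near that of all genes. The GOF and sex comparisons share libraries and are not independent of each other.

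In FPKM, which compares levels between genes, Nr5a1 was the most abundant member in every group, at 376 ± 138 in female controls, 688 ± 142 in female GOF, 176 ± 20.5 in male controls and 392 ± 97.0 in male GOF. Cited2 was next, at 105 ± 13.1, 130 ± 29.7 and 56.8 ± 12.6 FPKM in female control, female GOF and male GOF. In male controls Nr2f2, at 47.3 ± 5.16 FPKM, and Cited2, at 46.1 ± 7.24, overlapped. The place of Nr0b1 moved, from rank 3 in female GOF (62.2 ± 16.1 FPKM), where it overlapped Nr2f6, to rank 6 in male controls (6.04 ± 0.5002) and male GOF (5.21 ± 4.96). In male GOF it overlapped both Nr2f1 and Nr5a2, with 12.6 FPKM in male GOF 2 and 2.26 to 3.43 in the others. Six4 was the lowest in every group.

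The list of known SF-1 target genes held 16 genes, of cholesterol handling, steroid synthesis and ACTH response, and Inha, the inhibin alpha subunit. With GOF 2 of the 16 rose and 4 fell in each sex, a share near the 39.6% (females) and 36.9% (males) of all tested genes that passed, and the list's median log2 change was -0.13 in females and -0.18 in males. Cyp11b2, aldosterone synthase, fell in females, at 231 ± 60.7 CPM in controls and 26.5 ± 10.2 in GOF (-3.12 ± 0.424, adjusted p = 6.74e-05). In males it fell as well, at 250.2 ± 116 and 51.1 ± 21.0 CPM (-2.29 ± 0.409, adjusted p = 0.000565). Cyp11b2 is itself 1 of the 4 zona glomerulosa markers, of which 2 fell in females and all 4 in males; their sum was 721 to 788 CPM in female and 733 to 1171 in male controls, and 344 to 509 CPM in female and 247 to 368 in male GOF. The part of glomerulosa cells in this fall was not tested. Akr1b7, an aldose reductase-like gene of the fasciculata, fell from 841 ± 264 to 265 ± 106 CPM in females (-1.66, adjusted p = 0.00391). Mrap, the ACTH receptor's accessory protein, fell in females from 421 ± 119 to 156 ± 23.2 CPM (-1.43 ± 0.266, adjusted p = 0.000749). In males its groups overlapped, at 329 ± 159 CPM in controls and 202 ± 24.4 in GOF (-0.70 ± 0.262, adjusted p = 0.0488), and this fold change was not refitted under the alternatives. Star, which carries cholesterol into mitochondria, fell in females from 10116 ± 1676 to 5898 ± 1508 CPM (-0.78, adjusted p = 0.00877; -0.73 and 0.0664 without the 3 libraries with kidney or liver transcripts) and in males by a log2 change of -0.57 (adjusted p = 0.0437). The male call was lost in 9 of 11 other settings and in 7 of the 16 fits that left out a library, and was -0.35 (adjusted p = 0.162) without male control 1.

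The genes that rose were Hsd3b1, a 3-beta-hydroxysteroid dehydrogenase, and Soat1, which esterifies cholesterol. Hsd3b1 was at 9473 ± 354 CPM in female controls and 17592 ± 2437 in female GOF (0.89 ± 0.208, adjusted p = 0.00349), and at 7181 ± 2388 and 10988 ± 2642 CPM in males (0.61 ± 0.207, adjusted p = 0.0301). The male groups of Hsd3b1 overlapped and the call was lost without male GOF 2 or without male control 2, 3 or 4, with only the groups compared in the fit (0.62, adjusted p = 0.107) and without the 3 libraries with kidney or liver transcripts (0.60, adjusted p = 0.0977). Soat1 rose in males from 606 ± 87.5 to 1035 ± 59.9 CPM (0.77 ± 0.107, adjusted p = 5.59e-05). Cyp21a1, steroid 21-hydroxylase and among the most abundant of the list, did not pass in either sex (-0.16, adjusted p = 0.654 in females; -0.68, adjusted p = 0.0509 in males). The male difference passed in 5 of 11 other settings, among them DESeq2 (adjusted p = 0.0247), and without female control 2 (adjusted p = 0.0489), male GOF 1 (0.043) or male GOF 2 (-0.99, adjusted p = 0.00659).

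**Figure D5:**
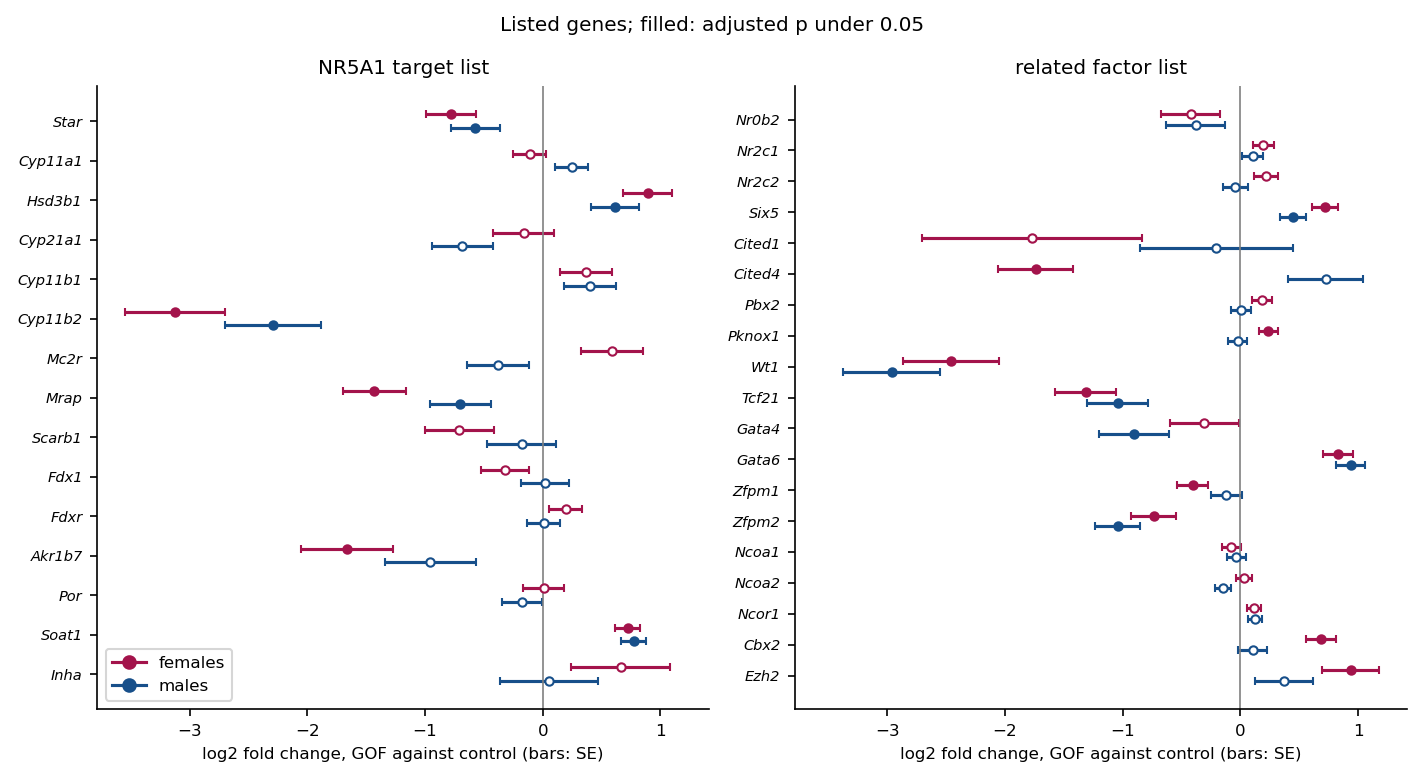
Log2 fold change of GOF against control in females and males, with its standard error, for tested genes of the SF-1 (NR5A1) target list and of the related factor list. Filled points had an adjusted p below 0.05 in the edgeR fit. Target genes lie on both sides of 0 with GOF in each sex.

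Between the sexes, of the targets, Fdx1, the ferredoxin that passes electrons to mitochondrial steroid enzymes, was higher in male controls at 1187 ± 197 CPM against 747 ± 186 (0.67, adjusted p = 0.0287), and no target was lower in the reported fit. Cyp21a1 passed as lower in male controls with only the groups compared in the fit (-0.61, edgeR, adjusted p = 0.0476). Hsd3b1 did so without male control 1 (-0.64, adjusted p = 0.0174). The call for Fdx1 was lost without female control 1 or 4 or male control 1 or 2 and in 4 of 11 other settings, while its log2 difference stayed between 0.53 and 0.81 in all these fits. Among GOF mice 3 were higher in males (Fdx1, Scarb1 and Akr1b7) and 3 lower (Hsd3b1, Cyp21a1 and Mc2r). These counts of 1 and 6 of the 16 stand beside 23.4% and 29.6% of all tested genes. Fdx1 had 1201 ± 159 CPM in male GOF against 597 ± 160 in female GOF (1.01 ± 0.205, adjusted p = 0.00191). Cyp21a1 was at 4384 ± 1999 CPM in male GOF against 9279 ± 1367 in female GOF (-1.08 ± 0.262, adjusted p = 0.00606), and Akr1b7 at 734 ± 248.7 against 265 ± 106 (1.47 ± 0.388, adjusted p = 0.0107). With the animal number range as a covariate the GOF sex differences of Cyp21a1 (-0.71, adjusted p = 0.167), Fdx1 (0.97, adjusted p = 0.0675) and Hsd3b1 (-0.58, adjusted p = 0.232) did not pass. The call for Hsd3b1 was also lost in 5 fits that left out a library, at -0.67 to -0.59. No target passed in the interaction, where 4.21% of all tested genes did (1 target had an unadjusted p below 0.05 in edgeR). The list's median sex differences were 0.07 and -0.08.

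The related factors were 23 paralogs of the members and other regulators named with adrenocortical identity, of which 22 were tested. With GOF 6 rose and 6 fell in females, and 3 rose and 5 fell in males, of the 22, beside 39.6% and 36.9% of all tested genes; medians were 0.07 and -0.03. Wt1, a zinc-finger factor of the adrenogonadal primordium and of capsular cells, fell in females, with 2.98 ± 1.75 CPM in controls and 0.538 ± 0.166 in GOF (-2.46 ± 0.407, adjusted p = 0.000286). It fell in males too, with 5.15 ± 0.561 and 0.657 ± 0.191 CPM (-2.96 ± 0.410, adjusted p = 5.59e-05). Tcf21, a factor of mesenchymal progenitors, fell in females from 13.6 ± 3.05 to 5.45 ± 1.66 CPM (-1.31, adjusted p = 0.00114), a fold change not refitted under the alternatives, and in males from 17.6 ± 5.47 to 8.51 ± 1.81 CPM (-1.04, adjusted p = 0.00555). Genes of the stroma marker list fell in the same comparisons, as given above. Ncor1, a co-repressor at 238 to 269 CPM as group means, did not pass in any comparison of the reported edgeR fit, where its change with GOF was 0.12 in females (adjusted p = 0.135) and 0.13 in males (adjusted p = 0.111). The male change passed in 5 of 11 other settings, among them DESeq2 (0.14, adjusted p = 0.0264) and limma on log2(FPKM + 0.1) (0.24, adjusted p = 0.00793), and without male control 4 (0.17, adjusted p = 0.036). The female change passed in 2 of 11, both limma fits on FPKM (adjusted p = 0.0396 and 0.0402).

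Cited genes differed from each other by sex. Cited4, a paralog of Cited2, was at 41.0 ± 6.61 CPM in female controls against 4.19 ± 1.37 in male controls (-3.29 ± 0.340, adjusted p = 1.27e-05), and fell to 12.3 ± 3.33 CPM in female GOF (-1.74 ± 0.318, adjusted p = 0.000639). Cited1 was the opposite in sex, at 1.01 ± 0.340 CPM in female controls against 47.2 ± 39.2 in male controls (5.54 ± 0.823, adjusted p = 0.000327) and at 0.295 ± 0.212 in female GOF against 41.0 ± 32.1 in male GOF (7.11 ± 0.923, adjusted p = 8.41e-05). The SD of Cited1 in males was close to its mean. X-zone markers were highest in female controls, as Cited4 was, and the part of X-zone cells in the Cited4 differences was not tested. Gata4, a zinc-finger factor of the fetal adrenal, and Ezh2, a histone methyltransferase, were lower in male than in female GOF, Ezh2 at 15.8 ± 2.85 against 33.9 ± 10.4 CPM (-1.11 ± 0.244, adjusted p = 0.00337) and Gata4 at 2.16 ± 0.684 against 4.84 ± 1.92 (-1.16, adjusted p = 0.009). With the animal number range as a covariate neither passed (-0.60, adjusted p = 0.235 for Ezh2 and -1.09, adjusted p = 0.120 for Gata4). All 5 cell cycle markers were lower in male than in female GOF as well, with sums of 34.9 to 102 against 131 to 440 CPM, and their part in the Ezh2 difference was not tested. Over the list, 4 were higher and 1 lower in males among controls, and 2 were higher and 6 lower among GOF mice, of the 22, beside 23.4% (13.5% higher, 9.89% lower) and 29.6% (13.3%, 16.3%) of all tested genes.

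Over the 16 libraries, the 5 genes whose log2 CPM had the highest Pearson correlation with Nr5a1 were Fbxl18 (0.95), Cdk8 (0.95), Nr5a1os (0.94), Morc3 (0.93) and Arid2 (0.93). Once the group means were taken out, their correlations were 0.65, 0.67, 0.79, 0.72 and 0.47, so much of the likeness lies between groups. For Nr0b1 they were Cyb5b (0.97, 0.80 within groups), Ptcd2 (0.97, 0.76), Adh7 (0.96, 0.72), Tcf24 (0.96, 0.72) and Smad2 (0.96, 0.60). Cited2 had a correlation of 0.93 with Nr0b1 (0.67 within groups), and Nr5a1 of 0.67 (0.41 within groups). All these values rest on libraries that share depth and group, and they describe these samples only.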

How the data were processed

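Adrenal RNA (integrity number of at least 7, RNeasy columns, NEBNext Ultra libraries, paired 150 bp Illumina reads, per the labels' protocols) was analysed from the deposited counts, whole reads per Ensembl gene, and from the FPKM values deposited by the authors. The submitters' processing notes name Bowtie2 2.2.3, TopHat2 2.0.12, HTSeq 0.6.1 and DESeq 1.18.0; build, annotation and strand setting are not given in the sources used here. Implied gene lengths equalled the mean GENCODE M21 transcript length within 1% in 96.4% of 13307 genes with at least 20 counts in every library, and symbols and coordinates (GRCm38) come from that annotation, which held 54723 of the identifiers. Replicates of a group differed more than counting noise (chi-square per degree of freedom at least 26.8 over 24 pairs).

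The count model was edgeR 4.0.16 (robust glmQLFit, glmQLFTest, TMM factors 0.945 to 1.10, filterByExpr with the 4 groups) in R 4.3.3, fitted once over the 16 libraries, with 5 contrasts. Ratios of FPKM were tested by exact permutation in scipy 1.17.1. Alternatives used DESeq2 1.42.0, other scaling, filters or samples, and limma 3.58.1 on log2 FPKM (pseudocount 1, or 0.1). All members were named. Of the lists, the rule took the 3 largest changes past the threshold and the most abundant genes; other list members that were named were chosen after their values were seen. Single values of some list genes are not reported here; they remain in the counts and medians. The genes most like Nr5a1 and Nr0b1 had a mean of at least 1 CPM. Members and lists were chosen with earlier results of these data known. Scripts were tested on simulated counts. Figures used matplotlib 3.10.9 in Python 3.11.15.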

Additional observations from a re-analysis of the deposited data

Results flagged for a closer look

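In 44 groups of 4 libraries tested for a library apart from its group, 4 had one whose gap to its neighbour was, as a share of the group's range, above Dixon's 95% critical value; chance gives about 1 in 20. Female control 4 was high for Nr5a1 at 1571 CPM, and male GOF 2 was high for Nr0b1 at 22.0 CPM. Male GOF 1 was low for Nr2f6 at 27.0 CPM, against 31.4 to 32.2 in the others. Female control 2 was high for Cited2 at 209 CPM, against 160 to 165.

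The GOF effect on Cited4 differed between the sexes by 2.46 on the log2 scale (edgeR interaction test, adjusted p = 0.0073). Cited4 fell in females, with a log2 change of -1.74 (adjusted p = 0.000639) and had a change of 0.73 in males (adjusted p = 0.088). Without the 3 libraries with kidney or liver transcripts the difference was 2.35 (adjusted p = 0.0513). X-zone marker sums were high in female controls alone, at 4906 to 7351 CPM against at most 3.24 CPM elsewhere. The part of X-zone cells in the Cited4 difference was not tested.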

How the results depend on the processing

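No paired analysis was possible because the labels give no replicate numbers and those used here follow the accession order. Each library was left out in turn, and 11 other settings were run. For members, 970 of 1056 values kept direction and side of the threshold, 24 lost the threshold, 20 passed it and 42 changed sign; for named list genes these were 947 of 1019, 42, 18 and 12. Where a cause is not named it was not tested.

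The numbers of members called moved from 4 to 2 with GOF in females with the animal number range as a covariate, with at least 10 counts in every library (fewer genes tested), or without the 3 libraries with kidney or liver transcripts (fewer samples). With the range as a covariate 1 member passed between the sexes among controls and 2 among GOF mice. Leaving out a library gave 3 to 4, 2 to 3, 4 to 5, 4 to 5 and 0 to 1 members in the 5 contrasts (GOF in females, GOF in males, sex among controls, sex among GOF, interaction), 5709 to 7466, 5215 to 6711, 2650 to 4881, 4243 to 5660 and 377 to 953 genes, 6 to 7, 4 to 7, 0 to 3, 3 to 7 and 0 to 1 SF-1 targets, and 9 to 12, 7 to 10, 3 to 6, 6 to 10 and 1 to 3 related factors.

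All genes called numbered 4554 with GOF in females and 1648 between the sexes in controls without the 3 libraries, and 1311 in controls and 1336 in GOF mice with the range as a covariate. In the interaction they were 1432 with DESeq2, 440 with the covariate, 407 with unfiltered log2(FPKM + 1), 408 with no filter and 175 without the 3 libraries. SF-1 targets called with GOF in males were 3 with only the groups compared and 3 without the 3 libraries; between the sexes in controls 0 with the covariate, with no filter and without the 3 libraries; and 1 in GOF mice with the covariate. Related factors called between the sexes were 2 in controls with the covariate, 3 with no filter and 3 without the 3 libraries, and in GOF mice 3 with the covariate and 5 with unfiltered log2(FPKM + 1); in the interaction 2 with DESeq2 and 0 without the 3 libraries.

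No value that changed sign passed the threshold in the reported fit. Nr5a2 between the sexes in controls was -0.0093 with the covariate and -0.21 without the 3 libraries. Nr2f1 with GOF in males was -0.0010 with at least 10 counts and -0.0097 without the 3 libraries; between the sexes in GOF mice it was 0.012 with DESeq2, 0.10 with the covariate, 0.026 with at least 10 counts, 0.011 with RLE, 0.051 with upper-quartile factors, 0.056 and 0.053 with log2(FPKM + 0.1) and log2(FPKM + 1), 0.053 unfiltered and 0.0048 with no filter. In the interaction Nr2f2 was -0.0027 without the 3 libraries, and Cited2 was 0.012 with the covariate, 0.045 with upper-quartile factors, 0.0054, 0.0026 and 0.0026 with the FPKM fits and 0.047 without the 3 libraries. Ncor1 was -0.018 with the covariate and -0.023 without the 3 libraries in the interaction, and 0.0050 with upper-quartile factors and 0.015, 0.015 and 0.015 with the FPKM fits between the sexes in GOF mice.

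Over the fits that left out a library, the values that changed sign ranged as follows. In the interaction, Nr5a1 ran from -0.054 to 0.35, Nr2f2 from -0.022 to 0.13, Cited2 from -0.19 to 0.11 and Ncor1 from -0.021 to 0.058. Between the sexes in controls, Nr5a2 ran from -0.27 to 0.75 and Star from -0.070 to 0.24. In males with GOF, Nr2f1 ran from -0.089 to 0.060. Between the sexes in GOF mice, Nr2f1 ran from -0.078 to 0.070 and Nr2f6 from -0.21 to 0.0080, and with GOF in females Nr2f6 ran from -0.12 to 0.13.

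Of the genes called with GOF, 48.0% were higher in females and 41.1% in males; with log2(FPKM + 1) these were 60.7% and 61.3%, and with upper-quartile factors 51.2% in males. With log2(FPKM + 0.1) the median gene moved to 0.11 and 0.12. Six4, with 4 to 34 counts, is the member most limited by depth. On log2(FPKM + 1) without a filter its female change was -0.10, since its FPKM is far below the pseudocount.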
